A study of Mus musculus with 8 samples.

Results

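The H/ACA box small nucleolar RNAs (snoRNAs) and the small Cajal body RNAs (scaRNAs) were followed through RNA libraries of cultured mouse kidney mesangial cells. Members were the rows of the count tables whose gene symbol starts with Snora or Scarna and continues with a digit. This gave 45 of 24639 rows, 36 named Snora and 9 named Scarna. The cells were primary glomerular mesangial cells of C57BL/6J mice, either wild type (WT) or homozygous for a short CRISPR-Cas9 nickase deletion that removes miR-379 (miR-379KO), and none were treated. Each genotype gave 2 libraries of total RNA and 2 libraries of RNA co-precipitated with the small-RNA binding protein Argonaute 2 (AGO2-IP), named A and B. The total RNA libraries were made with a poly(A) selection, whereas the AGO2-IP libraries came from UV cross-linked, sonicated lysate pulled down with an antibody to AGO2 and ligated to adapters. The 2 kinds of library therefore differ in selection as well as in the precipitation, and these cannot be told apart in a comparison between them. The study describes A and B as independent samples but does not say whether they came from separate mice, so p-values measure only the spread between these samples, which may be technical.

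H/ACA RNAs guide the conversion of uridine to pseudouridine. They fold into a pair of hairpins joined by a hinge that carries the H box, and end in a tail with the trinucleotide ACA close to the 3′ end. Each assembles with dyskerin (Dkc1), the pseudouridine synthase, and with Nop10, Nhp2 and Gar1. The Snora RNAs mostly act on ribosomal RNA in the nucleolus. The scaRNAs act on spliceosomal RNAs in Cajal bodies, and this name also covers RNAs of the other large family, the C/D box guides of 2′-O-methylation. Most mammalian members are cut out of introns of host genes and carry no poly(A) tail. A few H/ACA RNAs are known to be trimmed by Dicer into small RNAs that Argonaute proteins bind.

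The sequences of the RNAs the results turn on are given here as RefSeq annotates them on GRCm38.p6, the assembly behind mm10. Lower case is used throughout, and capitals mark an ACA that stands exactly 3 bases before the 3′ end. Snora70 (chrX:74272492-74272620, plus strand, intron of Rpl10) and Snora64 (chr17:24720789-24720905, plus strand, intron of Rps2) were the most abundant in AGO2-IP. Snora43 (chr2:26637847-26637985) and Snora17 (chr2:26639190-26639321) lie on the minus strand in introns of the long non-coding RNA Snhg7, and their ratio differed between the genotypes' libraries. Snora15 (chr5:129794561-129794676, plus strand, intron of Cct6a) was far lower in 1 AGO2-IP library than in the others. Snora41 (chr1:63179023-63179135, plus strand, intron of Eef1b2) and Scarna10 (chr6:125186361-125186431, minus strand, intron of Ncapd2) were called lower in miR-379KO AGO2-IP. Scarna2 (chr3:108554342-108554402, minus strand, in no gene of its strand) shows a row without the H/ACA tail.
Snora70: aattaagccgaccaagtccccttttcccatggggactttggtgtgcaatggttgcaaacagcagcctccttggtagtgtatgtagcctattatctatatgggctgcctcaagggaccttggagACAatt
Snora64: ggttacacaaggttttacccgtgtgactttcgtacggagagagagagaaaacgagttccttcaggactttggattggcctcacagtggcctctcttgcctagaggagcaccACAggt
Snora43: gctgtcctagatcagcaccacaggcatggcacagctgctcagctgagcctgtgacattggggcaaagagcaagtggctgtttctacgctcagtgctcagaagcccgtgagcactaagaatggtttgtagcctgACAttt
Snora17: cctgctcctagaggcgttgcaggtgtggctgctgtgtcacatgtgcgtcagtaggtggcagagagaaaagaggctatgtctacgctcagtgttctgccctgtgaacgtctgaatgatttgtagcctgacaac
Snora15: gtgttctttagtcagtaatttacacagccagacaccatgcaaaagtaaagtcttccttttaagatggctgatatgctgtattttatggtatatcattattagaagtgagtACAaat
Snora41: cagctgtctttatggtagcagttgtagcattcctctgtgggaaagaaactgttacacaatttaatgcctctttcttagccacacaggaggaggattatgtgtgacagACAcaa
Scarna10: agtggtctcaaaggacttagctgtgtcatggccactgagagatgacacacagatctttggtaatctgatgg
Scarna2: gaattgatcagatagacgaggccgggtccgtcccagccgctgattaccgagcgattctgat

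The label H/ACA held for the Snora rows but not for every Scarna row. On the RNA strand, an ACA exactly 3 bases from the 3′ end was found in 25 of 36 Snora rows, in 2 of 9 Scarna rows and in 1 of 70 annotated C/D snoRNA rows. Within the last 10 bases, ACA was found in 34 of 36 Snora rows, 5 of 9 Scarna rows and 2 of 70 C/D rows. The last 10 bases of 9.3% of 32851 promoter windows of RefSeq genes held it by comparison. The H box motif ANANNA lay in the central stretch of 30 Snora rows, 5 Scarna rows and 33 C/D rows, so it separates the families less sharply. CTGA, the D box of the C/D family, lay in the last 12 bases of 4 Scarna rows against 2 Snora rows and 67 C/D rows. Scarna2, Scarna9 and Scarna17 are known as C/D guides, and Scarna6 and Scarna10 as RNAs with features of both families. Snora17 and Snora43 were 67.8% identical over an alignment of 146 columns.

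Of the 45 rows, 41 lay in an intron of every spanning transcript of a gene on their own strand. Ribosomal protein genes hosted 11 of them. The annotated lengths ran from 42 to 275 bases with a median of 118, and 7 rows were annotated at under 80 bases (Scarna2, Scarna9, Scarna10, Scarna17, Snora19, Snora20 and Snora61), which is shorter than a complete H/ACA RNA. A near-identical genomic copy was found for 8 rows (Scarna17, Snora19, Snora21, Snora30, Snora41, Snora5c, Snora65 and Snora81), and their counts are uncertain because the copies could have shared or lost reads.

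Gene counts summed to between 17168230 and 22660743 in the total RNA libraries and to between 5587611 and 17095021 in the AGO2-IP libraries. In AGO2-IP, between 80.02% and 89.0% of gene counts fell on the ribosomal RNA precursor Rn45s and on Lars2. Levels compared between assays are therefore given as CPM, counts scaled so that the gene counts outside these 2 rows total 1000000. In total RNA, 8 of 9 mesangial markers averaged 1 such count or more, with Acta2 at 7436 to 11429, whereas the endothelial and immune lists summed to at most 2.25 and 1.57 in any library. Tubule genes summed to 2.25 to 29.7, highest in WT B through Lrp2 at 28.5. Podocyte genes summed to 268.8 to 684.5, mostly Synpo and Wt1. The Mir379 row held 0 counts in all 4 total RNA libraries and 0, 4, 1 and 0 counts in WT A, WT B, miR-379KO A and miR-379KO B of AGO2-IP, too few to check the genotype labels. Reads outside annotated genes made up 46.6% and 49.7% of placed reads in the WT pair of AGO2-IP libraries and 73.4% and 76.4% in the miR-379KO pair. The part of this difference in the genotype comparisons was not tested.

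The first question was how much of these RNAs each kind of library held. In total RNA, the 45 rows together received 143 and 230 counts for WT and 181 and 207 for miR-379KO. In AGO2-IP they received 18076 and 7084 counts for WT and 12804 and 11182 for miR-379KO. As a share of gene counts outside Rn45s and Lars2, the AGO2-IP sums were 0.964% (95% Wilson interval 0.9501% to 0.978%) in WT A, 0.441% (0.431% to 0.452%) in WT B, 0.979% (0.962% to 0.996%) in miR-379KO A and 1.002% (0.984% to 1.02%) in miR-379KO B. These intervals cover counting error only. The shares in total RNA lay between 0.000848% and 0.00139%. Every AGO2-IP library thus held far more of these RNAs than any total RNA library, and 3 of the 4 AGO2-IP libraries lay close together, with WT B below the rest. Both miR-379KO shares lay above both WT shares, but only narrowly above that of WT A. This order depended on the denominator, since WT A was highest as a share of all reads listed (0.0284% against 0.0237% and 0.0221%) and in TMM-normalized CPM (1772 against 1502 and 1429). With 2 libraries against 2, no exact permutation test between genotypes could reach significance.

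Among single RNAs, 40 of the 45 had a count in AGO2-IP, 30 had at least 10 counts in each of the 4 libraries and 13 had at least 100. In total RNA 35 had a count, but 19 of the 45 summed to no more than 3 counts over the 4 libraries. CPM outside Rn45s and Lars2 was higher in every AGO2-IP library than in every total RNA library for 37 of the 45 rows and lower for none. Over all 24639 rows, 37.2% met the same condition. The 8 remaining rows were Scarna3a, Scarna3b and Snora34, with 1 or 2 AGO2-IP counts each, and Snora19, Snora24, Snora26, Snora35 and Snora36b, which were at 0 everywhere.

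**Figure D1:**
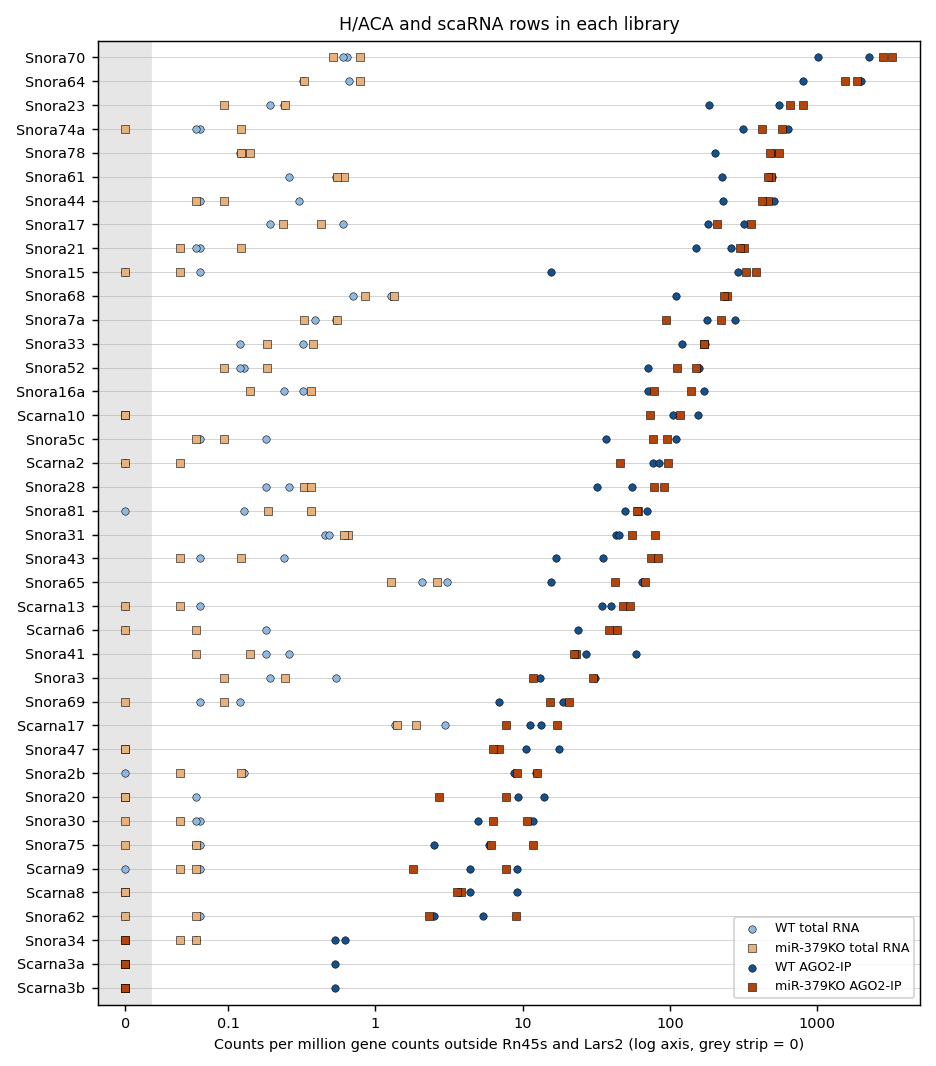
Level of each of the 40 H/ACA and scaRNA rows that had a count, on a log axis of CPM outside Rn45s and Lars2, with each point 1 library and zeros in the grey strip. Circles are WT and squares miR-379KO, pale colours are total RNA and dark colours AGO2-IP. The AGO2-IP points lie to the right of the total RNA points for 37 rows, and Snora15 in 1 WT library lies far to the left of its other AGO2-IP values.

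Snora70 led in AGO2-IP, with 4179 and 1631 counts for WT and 3622 and 3576 for miR-379KO, against 10, 10, 11 and 13 counts in total RNA. Snora64 followed, with 3681 and 1290 counts for WT and 2009 and 2068 for miR-379KO, against 5, 11, 7 and 13 in total RNA. These RNAs together made up between 41.2% and 50.5% of all H/ACA and scaRNA counts of an AGO2-IP library, but only 9.13% to 12.6% in total RNA. Snora70 was 3612 times and Snora64 2927 times as high in AGO2-IP as in total RNA, on means of CPM outside Rn45s and Lars2. By edgeR's quasi-likelihood test over 17429 rows, the log2 difference for Snora70 was 11.49 ± 0.55 (SE, adjusted p = 1.7e-10) in WT and 11.75 ± 0.55 (adjusted p = 7.9e-11) in miR-379KO.

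Per kilobase of annotated length, Snora70 stood at a mean of 17865 CPM over the 4 AGO2-IP libraries (7874 to 24844), Snora64 at 13153 (6867 to 16779) and Snora44 at 3456 (1959 to 4335). Within each of the 4 libraries Snora70 was above Snora64, and Snora64 above Snora44, although in WT A the values of Snora70 and Snora64 were close (17277 and 16779). Snora61 stood at 6712 on this scale, but only 62 bases of it are annotated, which raises any value per length. Below Snora44, Snora23 (2969), Snora78 (2759), Snora74a (2451), Snora15 (2187), Snora68 (2098), Snora17 (2010) and Snora21 (2006) followed by their means. Within each library Snora78 was above Snora68 and Snora21, whereas Snora23 was below Snora78 in both WT libraries and above it in both miR-379KO libraries.

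Most of the lower-ranking RNAs were likewise low in WT B. Snora23, in an intron of the nuclear import gene Ipo7, had 1029, 295, 852 and 894 AGO2-IP counts in WT A, WT B, miR-379KO A and miR-379KO B, the order used from here on for 4 values of 1 assay. Snora74a, in the long non-coding RNA Snhg4, had 1177, 505, 757 and 469, and Snora78, in Snhg9, had 937, 325, 723 and 533. Snora44 and Snora61, both in Snhg12, had 951, 368, 600 and 471 and 925, 359, 636 and 515. WT B held the lowest count of the 4 in each of these RNAs other than Snora74a. In CPM outside Rn45s and Lars2 it was lowest for Snora74a too (627.7, 314.5, 578.7 and 420.3). Snora21, in the ribosomal protein gene Rpl23, had 486, 239, 418 and 334, and Snora68 had 441, 176, 319 and 261. Snora7a, in Rpl32, had 515, 284, 288 and 105, so that here miR-379KO B was lowest.

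The order in total RNA was only partly that in AGO2-IP. Snora70, first in AGO2-IP, came after Snora65, Scarna17 and Snora68 in total RNA, with 44 counts in all. Snora65, in an intron of the ribosomal protein gene Rpl12, had 32, 51, 27 and 43 total RNA counts and 120, 25, 55 and 75 AGO2-IP counts. Scarna17 had 21, 49, 30 and 31 total RNA counts and 25, 18, 10 and 19 AGO2-IP counts. In CPM these RNAs were only 21.0 and 6.48 times as high in AGO2-IP as in total RNA. The median ratio was 529 among the 26 rows with more than 3 total RNA counts, and the highest ratio was that of Snora74a, at 7885 from 4 total RNA counts. Snora68 and Snora31 were 198.0 and 101.0 times as high. The Snora65 and Scarna17 rows both have near-identical copies elsewhere in the genome.

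All 37 rows that passed the filter on low counts were called higher in AGO2-IP, at an adjusted p under 0.05 and at least 2-fold, in both genotypes (background 35.7% of rows higher and 7.33% lower in WT, 41.6% and 19.3% in miR-379KO). Most of them passed the filter through their AGO2-IP counts, so that number carries no weight of its own. The exceptions were Snora65, Scarna17, Snora68, Snora64 and Snora70, which also passed in total RNA alone. The smallest log2 difference was that of Scarna17, at 2.65 in WT and 2.47 in miR-379KO. Scaled by library size alone, the call of Scarna17 was lost in both genotypes, with log2 differences of −0.29 in WT and 0.67 in miR-379KO. The call of Snora15 was lost whenever a total RNA library of the genotype was left out (adjusted p between 0.051 and 0.078).

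Among the scaRNAs, Scarna10, which guides modification of a spliceosomal RNA, had no total RNA count and 290, 167, 153 and 81 AGO2-IP counts. Against a floor of 3 counts over the 4 total RNA libraries it was at least 2612-fold higher in AGO2-IP. Scarna2 had 144, 135, 127 and 51 AGO2-IP counts and 1 total RNA count, and Scarna13 had 75, 55, 63 and 60 against 2. Scarna6 had 81, 38, 50 and 49 AGO2-IP counts against 0, 3, 0 and 1 in total RNA. Scarna8 had 17, 7, 5 and 4 AGO2-IP counts and none in total RNA, at least 121.4-fold higher. Scarna9 had 17, 7, 10 and 2 AGO2-IP counts, and Scarna3a and Scarna3b 1 count each, both in WT A. The scaRNAs thus spanned the range from well detected to 1 count, and C/D type, H/ACA type and mixed rows were all among those detected. In sum they made up 0.0347% and 0.0266% of gene counts outside Rn45s and Lars2 for the WT pair of AGO2-IP libraries and 0.0320% and 0.0238% for the miR-379KO pair.

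The counts were compared with those of genes that the cells did not express. Protein-coding autosomal rows with 0 counts in all 4 total RNA libraries (4804 rows) collected 1.20 and 0.807 counts per kilobase in the WT pair of AGO2-IP libraries and 2.72 and 3.10 in the miR-379KO pair. At those rates the 45 rows together would hold 6.57, 4.42, 14.9 and 16.999 counts in WT A, WT B, miR-379KO A and miR-379KO B. Between 36 and 38 of the 45 rows held more than 10 times their own such count in each library. The largest such count of any row was 0.853, so few counts sufficed. That number therefore largely restates detection, as 40, 38, 37 and 37 rows had a count at all. That low-level signal was higher in both miR-379KO libraries than in both WT libraries.

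Among C/D rows, annotated length and detection went together, whereas few Snora rows were annotated at under 100 bases and most of those were detected. The 32 Snora rows of 100 bases or more had a median of 334.0 counts summed over the 4 AGO2-IP libraries, and 25 of them had at least 40. Of the 3 Snora rows under 80 bases 2 had at least 40, with a median of 54.0, and the 1 row of 80 to 99 bases had 1197. Of the 50 C/D snoRNA rows under 80 bases none had 40 counts, whereas all 4 C/D rows of at least 100 bases did (Snord22, Snord15b, Snord15a and Snord17). By annotated length the Scarna rows went the other way. Of 4 under 80 bases 3 had at least 40 counts, with a median of 264.5. Of 5 at 100 bases or more 2 did, with a median of 33.0. Scarna and Snora rows under 80 bases may be annotated short of the full RNA, so annotated length need not be RNA length. The part of length, as opposed to box type, in the presence of these RNAs in AGO2-IP was not tested. Other non-coding RNAs were also far higher in AGO2-IP, with Rmrp, the RNA of RNase MRP, at 51444, 33046, 34160 and 14612 counts and Rpph1, the RNA of RNase P, at 24349, 14585, 19187 and 11512. Telomerase RNA (Terc), which itself has an H/ACA domain, had only 11, 13, 6 and 8 AGO2-IP counts and 1, 2, 0 and 2 total RNA counts.

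**Figure D2:**
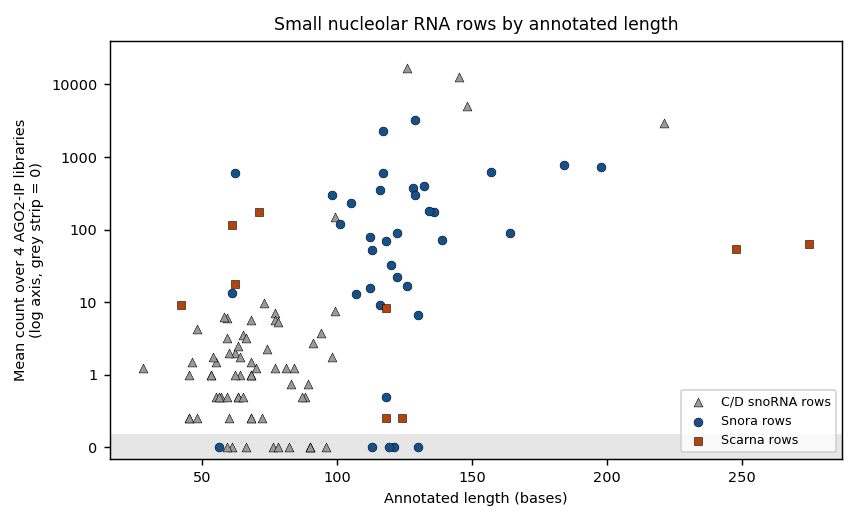
Mean count over the 4 AGO2-IP libraries, on a log axis with zeros in the grey strip, against annotated length in bases for Snora rows (circles), Scarna rows (squares) and C/D snoRNA rows (triangles), with each point 1 row. C/D rows under 80 bases have low counts and the 4 C/D rows of at least 100 bases have the highest, and most Snora rows are over 100 bases.

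The next question was whether the miR-379 deletion altered these RNAs in AGO2-IP. Of 33 rows that could be tested, edgeR called 1 higher and 4 lower in miR-379KO at an adjusted p under 0.05. The share called higher, 1 of 33, was below the background of 21.4% over all 13505 rows tested. The share called lower, 4 of 33, was near the background of 9.52%. In either direction, 30.9% of all rows were called. The median log2 difference was −0.09 for the 33 rows and −0.01 over all rows. Levels in this comparison are CPM with TMM normalization within the AGO2-IP libraries.

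Snora43 rose. Its level was 6.47 and 3.12 for WT and 11.4 and 11.9 for miR-379KO (means 4.80 ± 2.37 and 11.6 ± 0.355, SD, n = 2). The log2 difference was 1.25 ± 0.28 (SE, adjusted p = 0.0028 by edgeR's quasi-likelihood test). It was the only call that DESeq2 also made, and it was lost without WT replicate B (log2 difference 0.80, adjusted p = 0.054).

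Snora41 fell, from 10.8 and 4.97 in WT to 3.52 and 3.19 in miR-379KO, with a log2 difference of −1.24 ± 0.34 (adjusted p = 0.010). Snora47, in an intron of Zbed3 that is an exon in some transcripts, had 3.24 and 1.97 for WT and 1.06 and 0.894 for miR-379KO (log2 difference −1.42, adjusted p = 0.019). Snora20, in an intron of the chaperonin gene Tcp1, had 2.55 and 1.73 for WT and 1.17 and 0.383 for miR-379KO (−1.43, adjusted p = 0.033). Scarna10 had 28.4 and 19.3 for WT and 17.95 and 10.3 for miR-379KO (−0.75 ± 0.27, adjusted p = 0.038). None of the 4 overlapped between genotypes on this scale, and neither did Snora43. Snora70, Snora28, Snora31 and Scarna13, which were tested but not called, did not overlap either, so this alone does not set the called rows apart. How many of all rows did not overlap was not counted. Snora20 and Snora47 rest on 3 to 33 counts a library. All 4 lost the call under DESeq2 (adjusted p between 0.082 and 0.24) and without WT replicate A. Without miR-379KO replicate B, Snora47 (adjusted p = 0.14), Snora20 (log2 difference −0.89, adjusted p = 0.35) and Scarna10 (−0.43, adjusted p = 0.39) were not called by edgeR either. Without miR-379KO replicate A, Snora20 moved to −2.52 and Scarna10 to −1.28. Scaled by library size alone, Scarna10 turned to a log2 difference of 0.15, and none of the 4 passed. That scaling called 5393 of 13505 rows higher and 4 lower, and the median log2 difference over all rows was 0.87 in place of −0.01.

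These 5 calls were also expressed as each RNA's counts over the summed counts of the other H/ACA and scaRNA rows of the same library, a ratio that needs no scaling between libraries and was chosen after the data were seen. In miR-379KO against WT, that log2 ratio was higher by 1.095 for Snora43, and the differences were −1.41 for Snora41, −1.66 for Snora47, −1.93 for Snora20 and −1.08 for Scarna10. In each of the 5 the miR-379KO libraries did not overlap the WT libraries. The 5 were picked for their differences in these same libraries, so that lack of overlap carries no weight of its own.

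The other abundant RNAs did not pass. Snora70 had 409.7 and 188.6 for WT and 424.9 and 456.9 for miR-379KO (log2 difference 0.56 ± 0.34, adjusted p = 0.21). Snora64 had 360.9 and 149.2 for WT and 235.7 and 264.2 for miR-379KO (−0.03 ± 0.35). For both, the WT libraries spanned a wider range than the difference between genotypes. Snora28 (0.61, adjusted p = 0.068) and Snora7a (−0.82, adjusted p = 0.14) came nearest to the threshold without passing it.

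**Figure D3:**
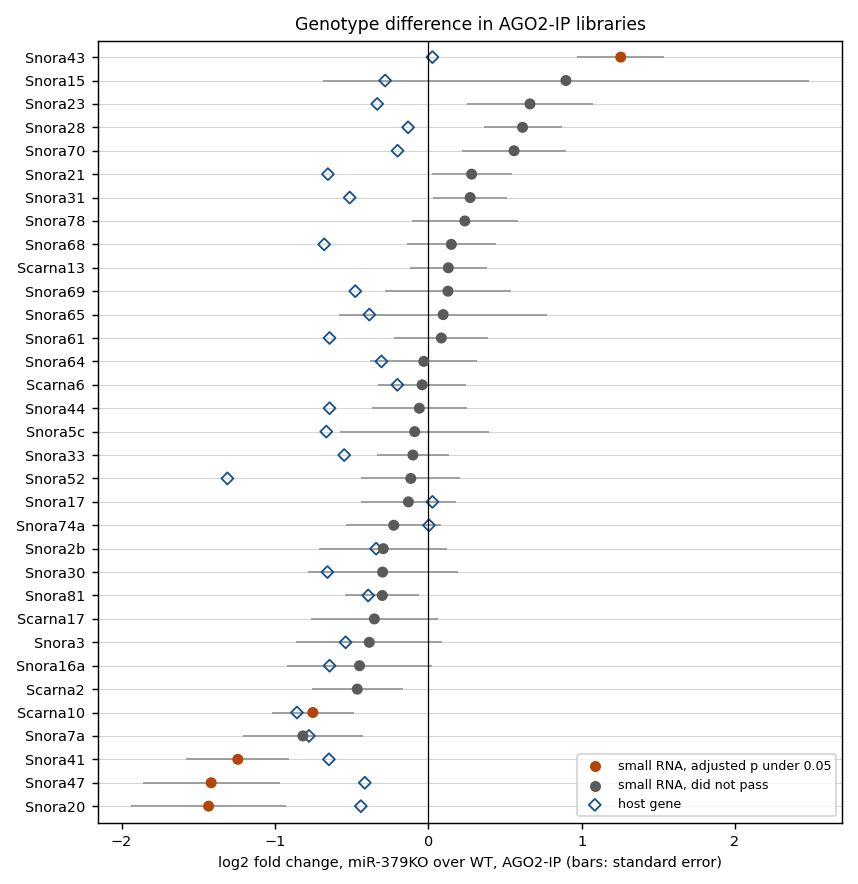
Log2 fold change of miR-379KO over WT in AGO2-IP for the 33 rows tested, with bars for the standard error and coloured points for rows at an adjusted p under 0.05; open diamonds are the host genes. Snora43 is the 1 call above 0 and Snora20, Snora47, Snora41 and Scarna10 are the calls below it, and Snora15 has the widest bar.

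WT replicate B stood apart from the other AGO2-IP libraries in this RNA class. The 26 rows with at least 20 counts in every AGO2-IP library were compared in CPM outside Rn45s and Lars2. Of these, 24 were lower in WT B than in WT A, against 3275 of 7229 rows of all kinds with such counts. The median log2 ratio of B to A was −1.08 for the 26 rows, against 0.04 for the 7229. Between the miR-379KO replicates the medians were −0.05 and 0.02. The 5 C/D snoRNA rows with such counts had a median of −1.07 in WT, so both families were lower there together. The exceptions in WT were Snora31 (0.05) and Scarna2 (0.13).

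Snora15 was the extreme. It had 540 counts in WT A, 25 in WT B, 426 in miR-379KO A and 430 in miR-379KO B. Its log2 ratio of WT B to WT A was −4.21, the lowest of all 7229 rows, and the next lowest in the class was Snora65 at −2.04. Its host gene Cct6a, a chaperonin subunit, had 222, 225, 168 and 153 AGO2-IP counts and so showed no such gap. The genotype difference of Snora15 was 0.90 ± 1.58 (adjusted p = 0.73) with all 4 libraries, −0.06 without WT B and 4.11 without WT A.

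**Figure D4:**
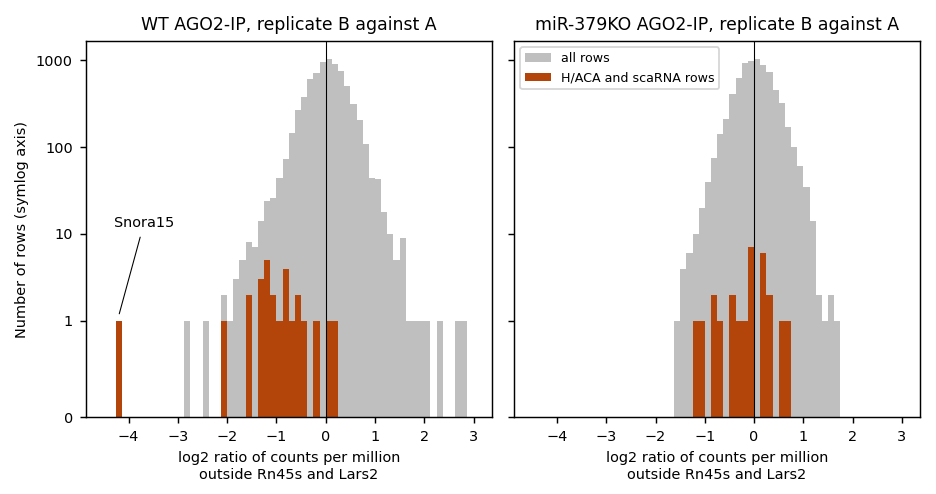
Number of rows, on a symlog axis, by log2 ratio of replicate B to replicate A in AGO2-IP for WT (left) and miR-379KO (right), over 7229 rows of all kinds (grey) and the 26 H/ACA and scaRNA rows (coloured) with at least 20 counts in each library. The coloured rows centre at −1.08 in WT and at −0.05 in miR-379KO, and Snora15 is the lowest row in WT.

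The genotype calls followed which WT library was kept. Without WT B, 6 rows were called, all lower in miR-379KO, and without WT A, 7 rows were called, all higher. Snora43 was among those called without WT A, and Snora41, Snora47, Snora20 and Scarna10 were among those called without WT B. Over all rows, 2351 of 15026 were called without WT B (1560 higher and 791 lower) and 3337 of 15004 without WT A (1976 higher and 1361 lower). With the replicate letter as a block, 6 members were called, the 5 above and Snora7a, against 3817 of all 13505 rows. Under DESeq2 only 1 member was called, against 838 of all 13505 rows.

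Ratios between RNAs from 1 host transcript do not depend on scaling. Snhg12 carries Snora16a, Snora44 and Snora61 in its introns. The ratio of Snora44 to Snora61 counts was 1.03 in WT A, 1.03 in WT B, 0.943 in miR-379KO A and 0.915 in miR-379KO B, even though the counts themselves ranged from 359 to 951. The ratios to Snora16a were less even, at 3.01, 3.26, 3.31 and 5.41 for Snora44 and 2.93, 3.18, 3.51 and 5.92 for Snora61, and in both the miR-379KO values lay above the WT values. The ratio of Snora64 to Snora78, which lie on opposite strands in Rps2 and Snhg9, was 3.93, 3.97, 2.78 and 3.88.

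In the Snhg7 pair the WT and miR-379KO ratios did not overlap, but this held for every pair above as well. Snora17 had 596, 290, 463 and 233 AGO2-IP counts and Snora43 had 66, 27, 97 and 93. Their ratio was 9.03 and 10.7 for WT and 4.77 and 2.51 for miR-379KO, a mean log2 ratio of 3.30 ± 0.18 against 1.79 ± 0.66 (SD, n = 2). Snora17 itself was not called (log2 difference −0.13), and neither was Snhg7 (0.03). Snora43 was called from these same counts, so the ratio is no separate evidence. Kansl2 carries Snora2b, with 23, 14, 12 and 14 counts, and Snora34, with 1, 1, 0 and 0, so RNAs of 1 host could also differ widely in level.

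**Figure D5:**
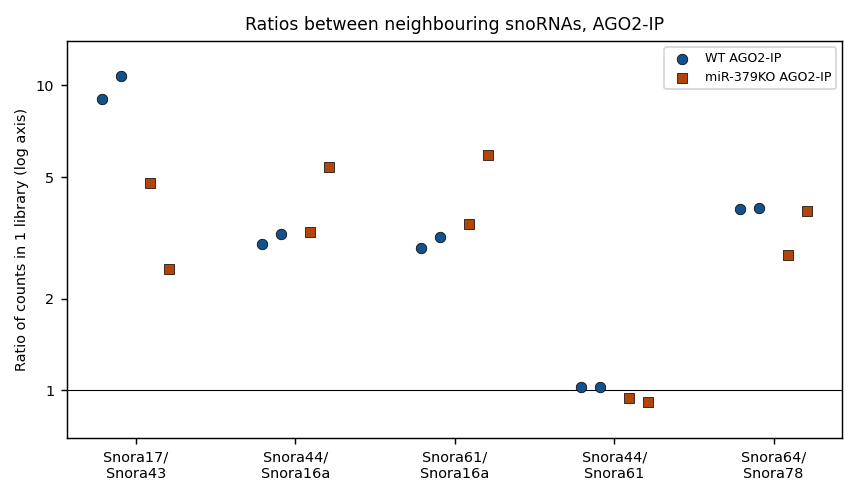
Ratio of AGO2-IP counts within each library, on a log axis, for 4 pairs of snoRNAs from the same host gene and for Snora64 and Snora78 from overlapping genes of opposite strands, with circles for WT and squares for miR-379KO. Snora44 to Snora61 stays between 0.915 and 1.03 in all 4 libraries, whereas Snora17 to Snora43 is 9.03 and 10.7 for WT and 4.77 and 2.51 for miR-379KO. In every pair shown the WT and miR-379KO values do not overlap.

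The host genes did not share the high levels of their small RNAs in AGO2-IP. Of 38 hosts tested, 3 were called higher and 15 lower in AGO2-IP than in total RNA in WT, with a median log2 difference of −0.40, and 4 higher and 20 lower in miR-379KO, with a median of −1.12. Over all rows the shares were 35.7% higher and 7.33% lower in WT and 41.6% and 19.3% in miR-379KO. Rpl10, host of Snora70, had 428, 485, 378 and 320 AGO2-IP counts against 11002 to 19834 in total RNA. The host counted highest in AGO2-IP relative to total RNA was Dancr, at 7.17 times. In the genotype comparison in AGO2-IP, 7 of 36 hosts were called lower and none higher (among them Rplp2, Rpl32, Ncapd2, Rpl23, Eef1b2 and Srcap), against 21.4% higher and 9.52% lower over all rows, and the median was −0.39. Eef1b2 and Ncapd2, hosts of Snora41 and Scarna10, were thus lower as well, at −0.65 (adjusted p = 0.032) and −0.86 (adjusted p = 0.012). Zbed3 and Tcp1, hosts of Snora47 and Snora20, had −0.41 and −0.44 and did not pass. The log2 ratio of a small RNA to its host, over 21 members with at least 10 counts for both in each library, was higher in miR-379KO than in WT for 18, with a median difference of 0.77. Against WT A alone it was higher for 11 and lower for 10, with a median of 0.02, and against WT B alone higher for all 21, with a median of 0.93.

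In total RNA, which samples the members only thinly, 5 rows could be tested and none was called, nor was any of the 12321 rows (background 0%) by edgeR. At an unadjusted p under 0.05, 0 of the 5 and 91 of all rows differed, and DESeq2 called 0 rows as well. Snora65 had a log2 difference of −0.36 ± 0.54, Scarna17 −0.34 ± 0.55, Snora68 0.19 ± 0.60, Snora64 0.21 ± 0.78 and Snora70 0.10 ± 0.62 (all adjusted p = 0.9997 by edgeR). A change in the other 40 rows was not detectable at this depth. The AGO2-IP change beyond the total RNA change was called for none of 37 members and for 0 of 17429 rows by edgeR (background 0%). At an unadjusted p under 0.05, 1 member and 2733 rows passed, and DESeq2 called 120 rows but no member. The smallest unadjusted p was that of Snora81 (log2 difference −2.44, adjusted p = 0.26), followed by Snora43 (1.88, adjusted p = 0.37) and Scarna2 (−2.23, adjusted p = 0.57). These differences rest on very few total RNA counts, 2, 0, 4 and 6 for Snora81, 1, 4, 1 and 2 for Snora43, and 0, 0, 1 and 0 for Scarna2. In AGO2-IP alone the log2 difference of Snora81 was −0.30.

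The proteins that build and mature these RNAs were read from lists chosen for their function. In total RNA, none of the 9 genes for H/ACA core and assembly factors, the 4 Cajal body genes or the 4 genes for 3′ end maturation was called between genotypes. Dkc1 had 357, 547, 527 and 613 total RNA counts and Nop10 448, 688, 865 and 624. In AGO2-IP, where 21.4% of all rows were called higher and 9.52% lower, 1 of the 9 was called lower, the assembly helicase gene Ruvbl2 (log2 difference −1.05, adjusted p = 0.037). Among the Cajal body genes Smn1, needed to assemble spliceosomal particles, was called higher (0.97, adjusted p = 0.0085). Among the maturation genes Exosc10, the nuclear exosome nuclease, was called lower (−0.89, adjusted p = 0.011). The 2 telomerase genes and the 3 genes for C/D proteins held no call in AGO2-IP, and neither did the 5 small RNA machinery genes.

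The 5 rows at 0 differed in their surroundings. Snora24 lies in an exon of Snhg8 and Snora26 in an exon of some Dancr transcripts. Reads shared by 2 genes are tallied apart as ambiguous, and their part in these zeros was not tested. Snora35 lies in Htr2c, a serotonin receptor gene with no total RNA count. Snora36b and Snora19 lie in introns of Rab3gap2 and Eif3a, which had 1270 to 1913 and 7535 to 11025 total RNA counts. A count of 0 in each library is compatible with up to 3 counts, so these RNAs were not detected at this depth.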

How the data were processed

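Total RNA and AGO2-IP RNA from WT and miR-379KO mesangial cells were sequenced in 8 libraries, 2 for each of 4 groups. The deposited values are raw read counts per gene, which the authors made with TopHat alignment to mm10 and HTSeq 0.6.0 on RefSeq genes. The submitters' processing notes also name Bowtie2 2.1.0.1. Counting followed strand, so reads on the opposite strand were left out. Rows that name no gene stayed out of every test. Reads outside genes made up 6.41% to 8.81% of placed reads in total RNA and 46.6% to 76.4% in AGO2-IP. Rows were matched to RefSeq annotation of GRCm38.p6 by symbol (23602 rows) or synonym (721 rows), and 316 did not match.

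Count tests used edgeR 4.0.16 quasi-likelihood fits (R 4.3.3) with TMM normalization, filterByExpr (minimum count 10) and Benjamini-Hochberg adjustment over all rows tested. Genotype comparisons used the 4 libraries of 1 assay, whereas AGO2-IP was compared with total RNA, and the genotype changes with each other, in 1 fit of all 8. Calls needed an adjusted p under 0.05, and between assays also 2-fold. Fits were tested on simulated data. DESeq2 1.42.0, other scalings, filters, replicate blocks and leaving out each library were the alternatives. Wilson intervals were at 95%. A near-identical copy had at least 97% identity over 90% of a row. Same-letter samples deviated with correlations of −0.11 in total RNA and 0.04 in AGO2-IP. Named RNAs were all Scarna rows, the 12 Snora rows highest in AGO2-IP, the 5 highest in total RNA, every called row, or without calls the smallest p-values, and their hosts. Pairs sharing a host, Snora31 and the rows at 0 were named after their values were seen. The members and the gene lists were chosen with earlier results of these data known.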

Additional observations from a re-analysis of the deposited data

How the results depend on the processing

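With 2 libraries a group, the 5 calls among members between genotypes in AGO2-IP moved with the processing. DESeq2 gave 1 (838 of all 13505 rows). Scaling by library size alone gave 9, all higher in miR-379KO, as were 5393 of the 5397 rows it called. TMM on genes with total RNA counts gave 3 (3975 of 13505 rows). A mean of at least 50 counts gave 1 (274 of 4971 rows), and all 8 libraries in 1 fit gave 0 (686 of 17429 rows). The main fit called 4173 of 13505 rows, so the calls over all rows moved as well. Leaving out 1 library gave 2 to 10 calls. The replicate block gave 6 (3817 of 13505 rows). Scarna10 reversed to 0.15 under library size alone. The letters were not shown to pair the samples. A crossed pairing in total RNA was added after the data were seen, because same-letter deviations there had a weak negative correlation of −0.11. It called 0 members (1 of all rows, against 0). Between assays, a mean of at least 50 counts left 19 called in each genotype in place of 37, because fewer rows were tested; library size alone, or leaving out a total RNA library of the genotype, left 36. The AGO2-IP change beyond total RNA gave 1 member under library size alone (2153 of 17429 rows) and 0 otherwise. In total RNA, the filter on a mean of 50 counts left no member to test. The genotype difference in the log2 summed AGO2-IP share was 0.60 and became −0.053 as a share of all reads listed, 1.16 as a share of all gene counts and 0.28 in TMM CPM, and leaving out 1 library gave 0.04 to 1.17. The cause of these shifts was not tested, apart from the smaller number of rows.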
